A study of Homo sapiens with 6 samples.

Results

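The sideroflexins SFXN1, SFXN2, SFXN3, SFXN4 and SFXN5 are the human genes of a small family of mitochondrial inner membrane proteins. They were taken from the deposited gene count table by symbol, which gave 5 of 60564 genes, 1 Ensembl gene for each. All 5 were among the 18797 genes with enough counts to be tested. RNA sequencing was run on HEK293, an established line derived from human embryonic kidney, with 3 libraries named NC_HA, whose genotype is wild type, and 3 libraries named OE_HA, in which SFXN2 was stably overexpressed. No other treatment, time or dose separates the groups in the labels. Whether replicates were separate cultures is not stated in the labels, so a p-value reflects the spread among these 6 libraries alone, which may be technical. The promoter and vector that drive SFXN2, any tag, and whether the overexpressing cells are 1 clone or a pool were not given in the sources used here. What NC and HA stand for in the library names was not given in the labels either. Wild type is used below for the genotype in the labels and does not state that these cells were otherwise untouched.

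Sideroflexins carry small metabolites across the inner mitochondrial membrane. SFXN1 brings serine into the matrix, where the one-carbon pathway uses it, and SFXN3 can take over part of this work. SFXN2 has been tied to mitochondrial iron and heme, SFXN4 is an assembly factor of respiratory complex I rather than a known serine carrier, and SFXN5 has been linked to citrate transport in the rat. The series title links SFXN2 to apoptosis that follows mitochondrial dysfunction. The comparison therefore shows how the family's transcripts stand in relation to each other in wild-type cells and in separate cells that stably overexpress SFXN2.

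The 5 genes lie on 3 chromosomes of GRCh38, with SFXN3 (101031234 to 101041244), SFXN2 (102714538 to 102743492) and SFXN4 (119140767 to 119165667) on chromosome 10. SFXN1 lies on chromosome 5 from 175477062 to 175529742, and SFXN5 on chromosome 2 from 72942036 to 73075619. SFXN4 and SFXN5 are on the minus strand and the rest on the plus strand. The coding sequences are of nearly the same size, 969 bases for SFXN1 and SFXN2, 966 for SFXN3, 1014 for SFXN4 and 1023 for SFXN5, with the stop codon. The untranslated ends differ far more. In the longest annotated coding transcript the 3′ end beyond the stop codon is 5730 bases in SFXN2, 3008 in SFXN1, 2986 in SFXN5, 1659 in SFXN3 and 329 in SFXN4.

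The longest run of bases common to the coding sequences of SFXN1, SFXN2, SFXN3 and SFXN5 is 12 bases, and SFXN4 does not hold it. It is shown with the bases around it because it is the longest stretch that these carriers all hold in their coding sequence. The longest exact coding run of SFXN4 with any member is 11 bases, so SFXN4 could not hold it. Single pairs share longer runs. Those of SFXN2 with SFXN3 (17 bases) and with SFXN5 (14 bases) contain the 12 bases. That of SFXN1 with SFXN2 (18 bases) lies just after them, within the windows shown, and that of SFXN1 with SFXN3 (20 bases) lies elsewhere. Each window of 60 coding bases is from GENCODE 29 and crosses an exon junction, at chr5:175509198-175510163 for SFXN1, chr10:102727153-102728485 for SFXN2, chr10:101035663-101036057 for SFXN3 (all plus strand) and chr2:73000461-73001557 for SFXN5 (minus strand). Capitals mark the 12 shared bases, and sequences run 5′ to 3′.
SFXN1: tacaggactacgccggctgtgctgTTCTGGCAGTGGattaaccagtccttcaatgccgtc
SFXN2: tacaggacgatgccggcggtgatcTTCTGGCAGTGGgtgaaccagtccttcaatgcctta
SFXN3: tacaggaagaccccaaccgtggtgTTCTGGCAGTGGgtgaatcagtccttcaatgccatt
SFXN5: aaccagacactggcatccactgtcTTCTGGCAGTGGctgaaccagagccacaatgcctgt

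Over the whole coding sequence the closest pair was SFXN1 and SFXN3, with 68.9% of 966 aligned bases identical, and SFXN2 was 64.2% identical to SFXN3 and 59.4% to SFXN1. SFXN4 was 54.8% to 59.4% identical to the others. The longest exact coding run was 20 bases, between SFXN1 and SFXN3. With SFXN2 it was 18 bases for SFXN1, 17 for SFXN3, 14 for SFXN5 and 9 for SFXN4. Longer runs lay outside the coding part: SFXN2 shared 28 bases with SFXN3 and 25 with SFXN1, in the 3′ untranslated ends. Read length was not given in the sources used here.

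Libraries held 32121527 to 41217867 counts in wild type and 40043248 to 59963713 with overexpression, and the smallest count of any member was 577, for SFXN5. The counting error, 1 over the square root of the count, was thus at most 4.16%. All 9 markers chosen for HEK293, among them the intermediate filament genes NEFL, NEFM, INA, KRT8, KRT18 and VIM, were detected. Their summed level was 1446 to 1586 CPM in wild type and 1516 to 1633 CPM with overexpression (CPM, a gene's counts scaled to a common library total by the TMM method). Markers of blood summed to at most 0.91 CPM, of endothelium to 0.55 CPM and of hepatocytes to 0.64 CPM in any library, with HBB and TTR at 0 in all. The fibroblast markers summed to 14.6 to 21.1 CPM in wild type and 12.05 to 21.4 CPM with overexpression, most of it COL1A1. Wild-type replicate 2 stood apart for many genes, with the highest level of the 6 libraries for 24.1% of tested genes and the lowest for 23.3%.

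SFXN2 was the one sideroflexin that rose. Wild-type replicates 1, 2 and 3 held 1155, 1144 and 1580 of its counts, while 59139, 104997 and 108224 were held by overexpression replicates 1, 2 and 3. After scaling these were 36.5, 27.8 and 44.6 CPM against 1522, 1908 and 1769 CPM. The groups lay far apart, and the labels held in all 6 libraries. SFXN2 thus rose 47.7-fold (95% interval 35.1 to 65.0), a log2 fold change of 5.58 with SE 0.20. The adjusted p of edgeR's quasi-likelihood F-test was 2.32e-06 (Benjamini-Hochberg over all tested genes). In these bulk libraries a higher level per cell and a larger share of expressing cells cannot be told apart. Of all tested genes 0.0106% passed an adjusted p of 0.05 as higher, which is 2 of 18797 with SFXN2 itself, and with the replicate number as a block SFXN2 was the 1 gene left. The second was C1QTNF3-AMACR, a read-through gene model named here after its value was seen (edgeR adjusted p = 0.0386). It had 0 CPM in every wild-type library and 2.06, 2.47 and 1.28 CPM in overexpression replicates 1, 2 and 3. These levels are near the floor, and the gene passed the count filter through the overexpression libraries alone, so its p-value is no independent support.

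The size of the rise differed between libraries. Between libraries with the same replicate number the log2 difference of SFXN2 was 5.38, 6.10 and 5.31 for numbers 1, 2 and 3. The widest difference came with the lowest wild-type level and the highest overexpression level, both in replicate 2. Within a group the coefficient of variation was 23.2% in wild type and 11.3% with overexpression (n = 3 each), the former the largest of any member in either group. SFXN2 took 0.00278% to 0.00441% of all counts in wild type and 0.148% to 0.198% with overexpression. By CPM it stood at ranks 5228 to 7260 among the tested genes in wild-type libraries and at ranks 22 to 42 in the overexpression libraries.

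**Figure D1:**
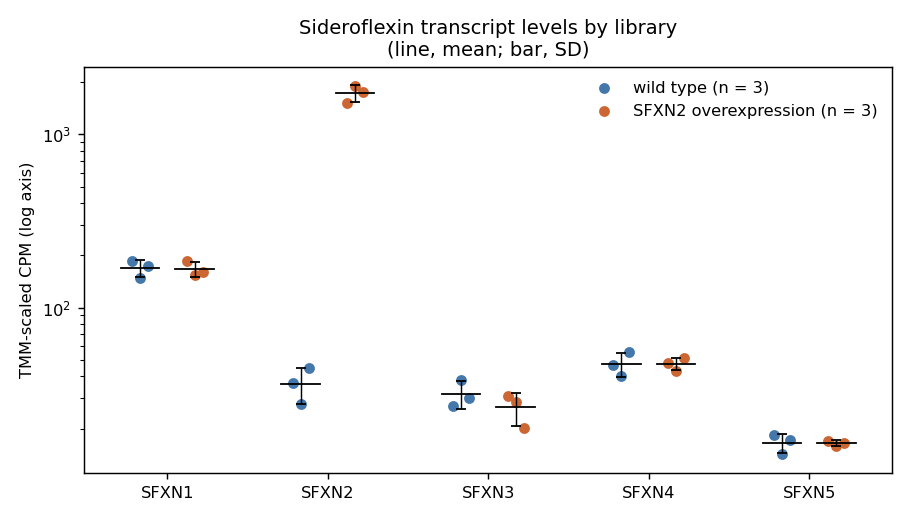
Level of each sideroflexin in TMM-scaled CPM (log axis) in 3 wild-type and 3 SFXN2 overexpression libraries; points are libraries, lines the group means and bars the SD. SFXN2 moves from 27.8 to 44.6 CPM in wild type to 1522 to 1908 CPM, while the groups overlap for every other member.

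SFXN1 had the most counts of any member in wild-type cells and its groups did not separate. The serine carrier had 186, 148 and 174 CPM in wild-type replicates 1, 2 and 3, and 186, 155 and 160 CPM with overexpression. The ranges overlapped, with the lowest value in wild-type replicate 2. The log2 fold change was -0.021 (SE 0.12, adjusted p = 0.992 by edgeR), and its 95% interval ran from -17.9% to 18.3% of the wild-type level. AC091393.1, a processed pseudogene within the span of SFXN1 on the other strand, had 0 counts in every library.

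SFXN3, the closest relative of SFXN1 by coding sequence, varied most among the remaining members. It had 27.0, 38.4 and 29.9 CPM in wild type and 30.9, 28.4 and 20.1 CPM with overexpression. The highest value was in wild-type replicate 2 and the lowest in overexpression replicate 3, and the other four lay close together across both groups. The log2 fold change of -0.26 (SE 0.18, adjusted p = 0.93 by edgeR) did not pass, with a 95% interval from -37.3% to 10.5% of the wild-type level. It was -0.11 without wild-type replicate 2 and -0.11 without overexpression replicate 3. In numbered pairs SFXN3 was higher with overexpression in pair 1 (0.20 on the log2 scale) and lower in pairs 2 and 3 (-0.44 and -0.57). PDZD7, which overlaps the start of SFXN3 on the opposite strand over 1062 bases but with no shared exon base, stood at 2.30 ± 1.23 and 1.91 ± 0.59 CPM (SD, n = 3 each).

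SFXN4, the complex I assembly factor, had 46.4, 39.97 and 55.1 CPM in wild type and 48.0, 43.2 and 51.0 CPM with overexpression. Every overexpression value lay inside the wild-type range. The log2 fold change was 0.0075 (SE 0.13, adjusted p = 0.996 by edgeR), with a 95% interval from -17.8% to 22.9%.

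SFXN5 had the fewest counts of the family and the tightest overexpression group. It had 18.2, 14.2 and 17.2 CPM in wild type and 17.1, 15.9 and 16.5 CPM with overexpression, with a coefficient of variation of 12.8% and 3.57%. The overexpression values again lay inside the wild-type range. The log2 fold change was -0.0049 (SE 0.14, adjusted p = 0.996 by edgeR), with a 95% interval from -19.5% to 23.4%. RAB11FIP5, a neighbour on the same strand, shares 39 exon bases with SFXN5, which is 0.352% of the exon bases of SFXN5. It stood at 48.5 ± 3.60 and 45.3 ± 10.2 CPM (SD, n = 3 each).

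None of the other members rose beside SFXN2. The mean of SFXN2 rose by 1697 CPM, while the group means of SFXN1, SFXN3, SFXN4 and SFXN5 differed by -2.49, -5.27, 0.23 and -0.063 CPM. None of the 4 passed the test, with or without the replicate number as a block. Each of these differences was smaller than the SD between libraries of either group.

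**Figure D2:**
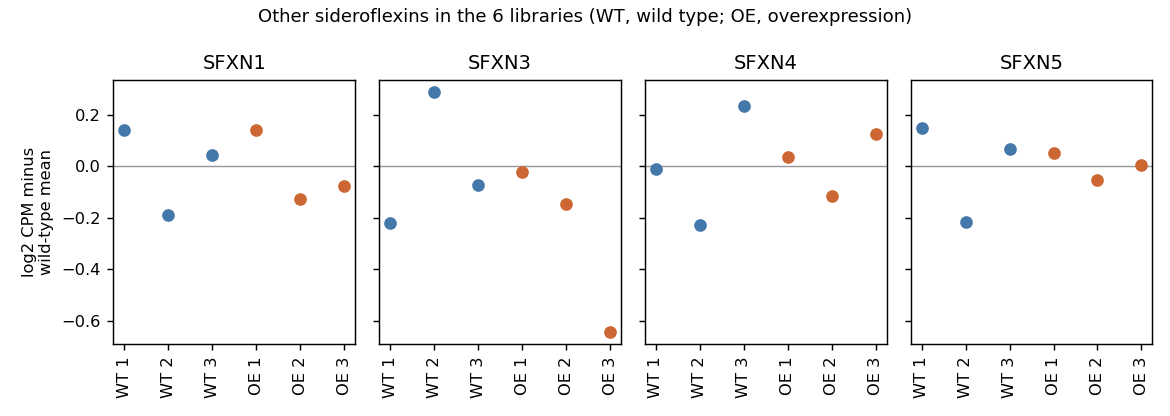
log2 CPM of SFXN1, SFXN3, SFXN4 and SFXN5 in each library, relative to the mean of the 3 wild-type libraries, which is the grey line. Wild-type replicate 2 holds the lowest point of SFXN1, SFXN4 and SFXN5 and the highest point of SFXN3.

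SFXN3 and the other members lay on opposite sides in wild-type replicate 2. This library had the lowest value of all 6 for SFXN1, SFXN2, SFXN4 and SFXN5, and the highest for SFXN3. Relative to the wild-type mean the log2 level there was -0.19 for SFXN1, -0.36 for SFXN2, -0.23 for SFXN4 and -0.22 for SFXN5, against 0.29 for SFXN3. Over all tested genes 24.1% were highest and 23.3% lowest in this library. Of the 11 genes of matrix serine and one-carbon metabolism, 5 were highest in the same library and 4 were lowest there. Those highest included SHMT2, which turns matrix serine into glycine (416 CPM, against 231 to 297 in the other 5 libraries), and those lowest included DLD, a shared subunit of the glycine cleavage system (114 CPM, against 129 to 153). The part of whatever sets this library apart in the value of SFXN3 was not tested.

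Levels of different genes can be set side by side only per length, so counts were divided by each gene's exon bases, all annotated exons merged (CPM per kilobase). In wild type SFXN4 (25.2 ± 4.06) and SFXN1 (22.4 ± 2.55) led, followed by SFXN3 (6.85 ± 1.28), SFXN2 (4.52 ± 1.05) and SFXN5 (1.49 ± 0.19; CPM per kilobase, SD, n = 3 each). This order was the same in all 3 wild-type libraries. By this length the ranges of SFXN4 and SFXN1 over the wild-type libraries overlapped, though SFXN4 was 1.01 to 1.28 times as high as SFXN1 within a library. SFXN1 was 2.36 to 4.22 times as high as SFXN3, SFXN3 1.16 to 2.40 times as high as SFXN2, and SFXN2 2.70 to 3.57 times as high as SFXN5, with no overlap of ranges. The length used decides part of the order. With the length of the longest coding transcript SFXN1 came first in wild type (40.1 CPM per kilobase) and SFXN4 second (34.6). With coding length SFXN1 (175) stood far above SFXN4 (46.5), and SFXN2 (37.5) also came before SFXN3 (32.9). How close SFXN1 and SFXN4 stand thus depends on the length used.

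With overexpression SFXN2 moved from the fourth place to the first, and the other four kept their order in all 3 libraries. By merged exon length SFXN2 stood at 216 ± 24.4 CPM per kilobase (SD, n = 3), 7.37 to 10.3 times the level of SFXN4 in the same library. This multiple depends on the length used. With coding length the overexpression means were 1788 for SFXN2, 172 for SFXN1, then the next member, and 46.7 for SFXN4. The values and ranks per kilobase that follow use merged exon length. SFXN4 and SFXN1 stood at 25.4 ± 2.11 and 22.1 ± 2.23, SFXN3 at 5.72 ± 1.22 and SFXN5 at 1.49 ± 0.053 CPM per kilobase (SD, n = 3 each). Among 18578 tested genes with an annotated length, SFXN2 went from ranks 7193 to 9317 per kilobase to ranks 89 to 138. SFXN1 and SFXN4 stood at ranks 1370 to 2079 over both groups.

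With overexpression most of the family's transcript level was SFXN2. As SFXN2 was the gene overexpressed, a higher share was set by the design, and the test of that share adds no support. Its share of the summed level per kilobase was 7.40%, 6.40% and 8.41% in the wild-type libraries, and 76.4%, 82.3% and 80.2% with overexpression. The groups did not overlap, and the mean share was 7.40 ± 1.00% against 79.6 ± 2.99% (SD, n = 3 each; exact two-sided permutation p = 0.1, the smallest that 3 against 3 can give). The other four members together stood at 56.9, 50.6 and 60.5 CPM per kilobase in wild type and at 58.5, 51.1 and 54.3 with overexpression. These ranges overlapped (mean difference -1.35 CPM per kilobase, exact two-sided permutation p = 0.8). Counts of the cell's own SFXN2 transcript and of the introduced one were not separated. Exon bases of SFXN2 are 8034, of which the coding part is 12.1%, so a construct without the untranslated ends would stand higher per kilobase than given here. With coding length for all members the share of SFXN2 was 12.1% and 87.1%.

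**Figure D3:**
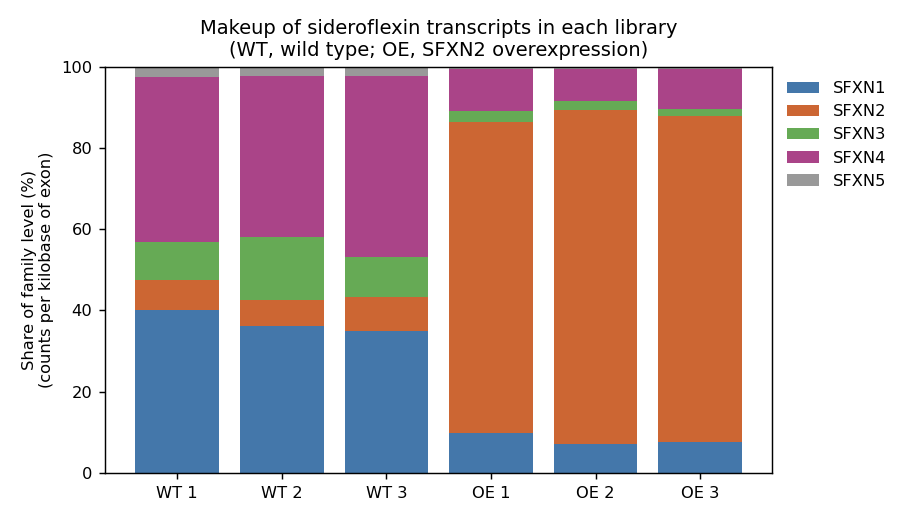
Share of each sideroflexin in the summed family level, in counts per kilobase of exon, for each of the 6 libraries; segments of a bar add up to 100%. SFXN2 holds 6.40% to 8.41% in wild type and 76.4% to 82.3% with overexpression.

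The start regions of the family, apart from 1 window of SFXN5, held more CpG pairs than the median window. RefSeq windows of 300 bases (GRCh38.p14, 250 before to 50 after a start) were found for all 5 genes, 8 windows in all. SFXN1 had 41 CpG pairs, SFXN4 had 38 in each of its overlapping windows, SFXN2 had 24 and SFXN3 had 20, against a median of 14 over all 35116 windows. SFXN5 had 33, 29 and 6 in its 3 windows. SFXN1 and SFXN4, the members with the highest level per kilobase in wild type, thus had the most CpG pairs, a description over 5 genes. SFXN5, the member with the lowest level, held more than SFXN2 and SFXN3 in its windows of 33 and 29.

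The pattern of each member over the 6 libraries was compared with that of 15065 genes, as the root-mean-square difference of log2 CPM around each gene's own mean. These genes had a mean of at least 1 CPM and counts in every library, so genes silent in any library were left out. Within the family SFXN1 and SFXN5 were most alike (0.059), then SFXN4 and SFXN5 (0.11), while SFXN3 differed from each of these by 0.32 or more. The genes nearest to SFXN1 were PSMD10, a proteasome assembly chaperone, and CKAP4, an endoplasmic reticulum membrane protein (0.015 and 0.019). Near SFXN3 were PXDN, a matrix peroxidase, and DLX6, a homeobox factor (0.040 and 0.043). Near SFXN4 were CTDP1, an RNA polymerase II phosphatase, and CKMT1A, a mitochondrial creatine kinase with a near-identical copy (0.030 each), and near SFXN5 were NOMO3, which also has near-identical copies, and MIS18A, a centromere protein (0.024 and 0.025). Such flat patterns are common, with 1798 genes within 0.1 of SFXN1 and 2061 within 0.1 of SFXN5, but 49 within 0.1 of SFXN3. SFXN2 had no near neighbour among the compared genes: the nearest, AC026954.2 and AD000671.1, were 1.64 and 1.78 away.

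Genes around the sideroflexins were described in 5 lists, for the import of carriers, matrix one-carbon metabolism, complex I assembly, heme and iron, and PINK1 with outer membrane proteins. Of 53 tested members 0 passed in edgeR in either direction, against 0.0106% of all tested genes, and 0 passed in DESeq2 and limma-voom. The unadjusted p was below 0.05 for 1 of them, ALAS1, against 4.76% of all tested genes. Of the 53 members 26 had a positive log2 fold change. The median over all tested genes was 0.0060.

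The TIM22 pathway inserts sideroflexins and other carriers into the inner membrane. Of its 10 genes, 9 had a positive log2 fold change, with a median of 0.066 and a range from -0.048 to 0.15. TOMM70, the outer membrane receptor for carriers, stood at 90.3 ± 8.49 and 97.3 ± 2.01 CPM, and TIMM29, a subunit of the translocase, at 14.3 ± 1.75 and 15.7 ± 1.01 CPM (SD, n = 3 each). Wild-type replicate 2 was the lowest of the 6 libraries for 8 of the 10 genes, against 23.3% of all tested genes. Their summed level was 385 CPM there and 385 to 467 CPM over wild type, against 430 to 481 CPM with overexpression. The part of that library in the positive values was not tested.

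Matrix one-carbon genes, which use the serine that SFXN1 and SFXN3 bring in, had a median log2 fold change of -0.092 over 11 genes, 4 of them positive. GLDC, the decarboxylase of the glycine cleavage system, stood at 64.9 ± 1.44 CPM in wild type and 53.5 ± 9.42 CPM with overexpression (SD, n = 3 each; log2 fold change -0.28, adjusted p = 0.93 by edgeR). SHMT2 stood at 314 ± 93.7 and 260 ± 20.2 CPM (SD, n = 3 each; log2 fold change -0.27, adjusted p = 0.93 by edgeR), with the wild-type SD carried by replicate 2. The 7 genes of the complex I assembly group that works with SFXN4 had a median of -0.0056 and a range from -0.11 to 0.082. TIMMDC1 and COA1, both assembly factors, had the smallest unadjusted p values of this list, with log2 fold changes of -0.11 and 0.082.

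Heme and mitochondrial iron genes had a median log2 fold change of -0.034 over 14 tested genes, 5 of them positive. FTMT, mitochondrial ferritin, had no count in any library. ALAS1, which starts heme synthesis, had 40.5, 29.003 and 35.4 CPM in wild type and 39.0, 46.7 and 48.5 CPM with overexpression, and the ranges overlapped (log2 fold change 0.36, SE 0.14, adjusted p = 0.93 by edgeR). PPOX, a late enzyme of the pathway, had 11.8, 19.5 and 16.6 CPM in wild type and 14.1, 11.4 and 11.4 CPM with overexpression (log2 fold change -0.38, SE 0.20, adjusted p = 0.93 by edgeR). Neither passed the test.

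PINK1, a kinase stabilized on depolarized mitochondria, and proteins of the outer membrane had a median log2 fold change of -0.00084 over 11 genes, 5 of them positive. PINK1 stood at 76.6 ± 11.9 and 67.0 ± 11.4 CPM, and RHOT2, an outer membrane GTPase, at 92.8 ± 20.7 and 76.6 ± 4.94 CPM (SD, n = 3 each), and the edgeR adjusted p was 0.93 for each. Neither passed the test.

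**Figure D4:**
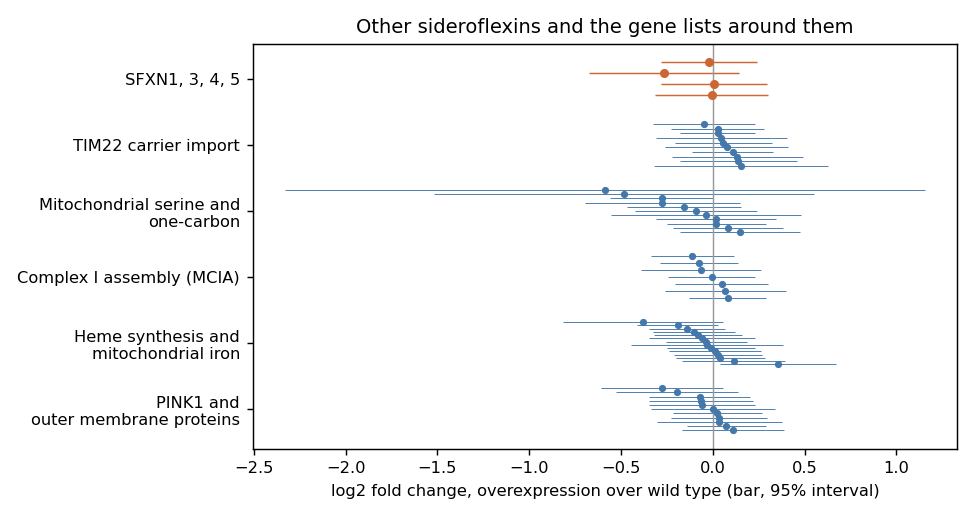
log2 fold change of overexpression over wild type with its 95% interval for SFXN1, SFXN3, SFXN4 and SFXN5 (orange, top to bottom) and for the tested members of the 5 lists (blue, sorted within a list). The medians of the lists lie between -0.092 and 0.066, and ALAS1 at 0.36 is the right-most point.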

How the data were processed

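Ribosomal RNA was removed from total RNA of the 6 samples, and libraries were made with TruSeq RNA v2, a kit that does not mark strand, per the labels' protocols. The submitters' processing notes name Trim Galore 0.4.4 and hg38. Aligner, counter and annotation were not given in the sources used here. Deposited values were raw counts per gene and, in a separate table, log2 values; these were checked to be log2(count / sample constant + 1).

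Counts were tested on the whole table with edgeR 4.0.16 (R 4.3.3): filterByExpr with a minimum count of 10, TMM scaling, the robust quasi-likelihood F-test on group, and Benjamini-Hochberg adjustment with a threshold of 0.05. SE is the size of the log2 fold change over the square root of F. The test was checked only on simulated data with large planted changes and no pairing of replicates. That check does not bear on small changes such as those of the other members. Positions, lengths and transcripts came from GENCODE 29; alignments used Biopython 1.88. Named genes are the members, overlapping genes, the 2 smallest unadjusted p values per list, PINK1, and the 2 genes most alike each member. DLD and the marker genes were named after their values were seen. 1 gene of the lists is not reported here. The members and lists were chosen with earlier results of these data known.

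Same-numbered libraries of the groups shared deviations from their group means (correlations over genes 0.242, 0.327 and 0.19 for numbers 1, 2 and 3, each above 0.1), so the numbers were taken as pairing samples on the data alone, since the labels state no pairs. No 2 libraries agreed within sampling noise (lowest chi-square 13.7 per degree of freedom). Other settings were library size alone, median-of-ratios scaling, SFXN2 left out of library totals, 2 other low-count filters, DESeq2 1.42.0, limma 3.58.1 on voom values and on the deposited log2 table, the replicate block, other lengths, and each library left out in turn.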

Additional observations from a re-analysis of the deposited data

How the results depend on the processing

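SFXN2 kept its direction and its side of the threshold under every setting run, with log2 fold changes from 5.41 to 5.75 when a library was left out. Leaving SFXN2 out of library totals gave the same values as the main fit for every member, so that setting adds no separate check. SFXN3 stayed negative and under the threshold in every setting, from -0.39 to -0.11 with a library left out. The sign of the other members, all close to 0, depended on the setting, and none passed under any. With library size alone the log2 fold change was 0.0042 for SFXN1 and 0.023 for SFXN5. For SFXN5 it was 1.6e-05 with a filter of 1 CPM in 3 libraries, 0.0097 with limma-voom and 0.0029 on the deposited log2 table. With the replicate block it was 0.0023 for SFXN5, and 1 gene, SFXN2, was past the threshold; the block changed no other call of a member. Leaving out a library gave -0.11 to 0.043 for SFXN1, -0.10 to 0.13 for SFXN4 and -0.11 to 0.063 for SFXN5, and 1 to 3 genes past the threshold. DESeq2 called 9 genes and limma-voom 3. The rise in the share of SFXN2, in percentage points, was 68.7 with transcript length, 75.0 without length and 75.0 with coding length (the last chosen after the data were seen), and 70.9 to 73.9 with a library left out. The summed level of the other four differed by -7.59 without length and -7.86 with coding length, on larger scales by construction, and by -4.07 to 0.92 CPM per kilobase with a library left out. No list member passed in any setting. With the replicate block the 95% intervals of the log2 fold change were narrower than without it for the members other than SFXN2. They were -0.19 to 0.15 against -0.28 to 0.24 for SFXN1, and -0.63 to 0.080 against -0.67 to 0.14 for SFXN3. They were -0.18 to 0.21 against -0.28 to 0.30 for SFXN4, and -0.27 to 0.28 against -0.31 to 0.30 for SFXN5. For SFXN2 the interval was 5.15 to 6.04 with the block against 5.13 to 6.02 without it. The size of change that 3 libraries per group can show thus depends on the pairing.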
